A study of Mus musculus with 7 samples.

Results

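In mouse liver, 5871 genomic regions carried retinoic acid receptor alpha (RARα) and retinoid X receptor alpha (RXRα) on both the control and the retinoic acid (RA) diet, and gained retinoic acid receptor beta (RARβ) on the RA diet. They were found by merging the overlapping or touching peaks of 6 peak lists into 87787 regions on the mm10 build. A region was kept where both RARα lists, both RXRα lists and the RARβ list of the RA diet held a peak in it and the RARβ list of the control diet held none. The lists come from chromatin immunoprecipitation followed by sequencing (ChIP-seq) of livers of wild-type male C57BL/6 mice aged 3 months, fed either normal chow or a diet with RA for 1 day. There was 1 library per receptor and diet, so each value below describes those libraries and no test between diets was possible. How many animals stood behind a library is not given in the sources used here. The regions were chosen by the peak calls of all 3 receptors, so the RARβ gain and the constancy of RARα and RXRα are the rule and not a result.

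RARα and RARβ are nuclear receptors that bind all-trans RA, the active form of vitamin A, and sit on DNA as heterodimers with an RXR. The heterodimer recognises paired hexamers (half-sites), most often arranged as a direct repeat, and binding of RA exchanges corepressors for coactivators. RXRα is also the partner of other liver receptors, among them the peroxisome proliferator-activated receptor PPARα, the bile acid receptor FXR, the oxysterol receptor LXR and the xenobiotic receptors CAR and PXR. In liver, hepatocytes handle dietary retinoid and stellate cells store it, and Rarb is itself a textbook RA target gene.

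The promoters that follow show the DNA at member regions that covered a gene start. They belong to the 6 named genes with the highest RARβ scores among those with an entry in the RefSeq promoter table and a start inside a member region, and each line gives the 250 bases before the RefSeq start, read in the direction of the gene (GRCm38.p6, the assembly behind mm10). Capitals mark half-sites, searched on both strands as AGGTCA, as the variants AGTTCA or GGGTCA, and as the variant GGTTCA. Crp (C-reactive protein, an acute phase protein) lies at chr1:172697806-172698055 on the plus strand, Ndufv2 (a subunit of mitochondrial complex I) at chr17:66101560-66101809 on the minus strand and Acadl (long-chain acyl-CoA dehydrogenase, an enzyme of fatty acid oxidation) at chr1:66863310-66863559 on the minus strand. Nr0b2 (the corepressor SHP, a target of FXR) lies at chr4:133553126-133553375 on the plus strand, Abcb11 (the bile salt export pump) at chr2:69342617-69342866 on the minus strand and Rpl37a (a ribosomal protein) at chr1:72711010-72711259 on the plus strand.
Crp: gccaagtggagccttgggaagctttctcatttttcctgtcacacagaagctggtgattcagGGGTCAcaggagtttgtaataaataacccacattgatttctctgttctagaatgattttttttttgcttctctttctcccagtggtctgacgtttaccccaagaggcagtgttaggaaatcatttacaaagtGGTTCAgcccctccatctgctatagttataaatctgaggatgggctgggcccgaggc
Ndufv2: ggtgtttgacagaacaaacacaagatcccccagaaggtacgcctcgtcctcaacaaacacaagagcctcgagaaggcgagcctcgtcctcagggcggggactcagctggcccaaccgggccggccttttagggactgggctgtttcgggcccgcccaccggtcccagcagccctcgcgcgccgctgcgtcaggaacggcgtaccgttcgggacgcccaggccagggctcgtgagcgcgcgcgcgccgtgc
Acadl: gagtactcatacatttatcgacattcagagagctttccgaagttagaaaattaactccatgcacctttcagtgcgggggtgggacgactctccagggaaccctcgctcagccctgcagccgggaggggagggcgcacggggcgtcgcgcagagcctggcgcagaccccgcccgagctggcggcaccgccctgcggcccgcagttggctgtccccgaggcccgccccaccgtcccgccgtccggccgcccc
Nr0b2: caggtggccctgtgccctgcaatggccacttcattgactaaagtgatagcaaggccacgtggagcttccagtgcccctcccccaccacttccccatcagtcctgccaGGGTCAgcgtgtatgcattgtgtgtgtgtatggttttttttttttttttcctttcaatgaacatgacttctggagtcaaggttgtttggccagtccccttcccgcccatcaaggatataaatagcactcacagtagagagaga
Abcb11: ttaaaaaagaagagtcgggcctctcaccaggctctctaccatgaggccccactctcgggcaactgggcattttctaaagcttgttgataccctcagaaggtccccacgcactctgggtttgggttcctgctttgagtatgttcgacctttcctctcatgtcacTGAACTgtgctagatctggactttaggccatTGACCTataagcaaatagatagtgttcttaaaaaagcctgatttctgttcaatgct
Rpl37a: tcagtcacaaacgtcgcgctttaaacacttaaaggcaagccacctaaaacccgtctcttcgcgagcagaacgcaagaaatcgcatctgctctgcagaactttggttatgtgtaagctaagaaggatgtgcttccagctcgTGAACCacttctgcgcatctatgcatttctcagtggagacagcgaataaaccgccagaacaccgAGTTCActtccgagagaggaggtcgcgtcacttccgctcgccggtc
The Crp, Abcb11 and Rpl37a promoters held 2 half-sites each and the Nr0b2 promoter held 1. The Ndufv2 and Acadl promoters held 0, which says only that these letters are not in this window. None of the 6 held 2 half-sites arranged as a direct repeat.

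The Cyp26a1 promoter, chosen after its values were seen, did hold such a repeat. Cyp26a1 encodes the main enzyme that clears RA, and its promoter is known for a classical RA response element. The 250 bases before its start, at chr19:37697558-37697807 on the plus strand, follow with both half-sites in capitals.
Cyp26a1: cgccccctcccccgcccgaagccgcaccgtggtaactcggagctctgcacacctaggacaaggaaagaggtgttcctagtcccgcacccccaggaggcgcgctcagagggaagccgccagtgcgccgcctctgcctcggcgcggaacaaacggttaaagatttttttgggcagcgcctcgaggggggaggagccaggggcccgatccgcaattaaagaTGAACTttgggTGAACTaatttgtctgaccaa
Read on the opposite strand, these half-sites form a DR5, a direct repeat with 5 bases between the hexamers, at chr19:37697776-37697792.

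Direct repeats with 1 to 8 bases between half-sites were found in 13 of 1246 promoters whose start lay inside a member region, or 1.04% (95% Wilson interval 0.611 to 1.78%). The share was 0.425% (0.286 to 0.632%) of 5641 promoters inside regions called in all 6 lists, 1 of 287 promoters (0.348%, 0.0615 to 1.95%) inside constant regions without RARβ and 0.508% (0.421 to 0.613%) of all 21263 protein-coding promoters in the RefSeq table. Single half-sites were in 42.0% (39.3 to 44.7%) of the member promoters, in 43.6% (37.9 to 49.3%) of those in constant regions without RARβ, in 33.6% (32.4 to 34.9%) of those called in all 6 lists and in 36.5% (35.8 to 37.1%) of all promoters. The half-site share was therefore not particular to the members. These and the later intervals cover counting error only, and a gene can give several promoters. Because the spacings differ, 10 of the repeats follow, each read on the strand that holds it, with half-sites in capitals.
Cyp26a1, DR5: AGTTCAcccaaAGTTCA
Blvrb, DR5: AGTTCAaagccAGTTCA
Ak4, DR1: GGGTCAgAGGTCA
Ccdc71, DR1: GGGTCAaGGGTCA
Cxcl10, DR1: AGTTCAtGGGTCA
Dph5, DR1: AGGTCAaGGGTCA
Efl1, DR1: GGGTCAgAGGTCA
Slc25a21, DR2: AGTTCAcaGGGTCA
Slc45a3, DR2: GGGTCAgtAGGTCA
Itih3, DR3: GGGTCActtGGTTCA
A repeat with 1 base between half-sites (DR1) was in 5 member promoters, one with 2 bases (DR2) in 2, and one with 5 bases (DR5) in 2. The shares were 0.401% (0.172 to 0.936%) for DR1 and 0.161% (0.0440 to 0.583%) for each of DR2 and DR5. Over all 21263 promoters the shares were 0.122% for DR1 and 0.0752% for each of DR2 and DR5. The member intervals for DR2 and DR5 include the share of all promoters. The spacings of 3, 6, 7 and 8 bases were found in 1 member promoter each, at Itih3, Cenpv, Bbs4 and Fam50b, and the spacing of 4 bases in 0, which allows a share of up to 0.307%. DR1 is the textbook element of PPARα with RXRα, and DR2 and DR5 are those of RAR with RXR. A match of letters is a description of the promoter and not a site at which binding was shown.

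Across the constant sites, the gain of RARβ was frequent. RARα and RXRα were called on both diets in 17410 regions, of which 33.7% (33.0 to 34.4%) were the members, 49.2% had RARβ on both diets, 14.0% had it on neither and 3.11% lost it. Of the 8303 constant regions with no control RARβ peak, 5871 gained one, or 70.7% (69.7 to 71.7%). Over all 73179 regions without a control RARβ peak the share was 23.7%, and since the rule used this contrast the comparison is a description. The control RARβ list was the shortest of the 6, with 14968 peaks against 29467 in the RARβ list of the RA diet, and read totals are not in the files, so a weaker control library and an effect of the diet cannot be told apart. Equally, binding in more cells and more binding per cell cannot be told apart in whole liver.

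List length moved the balance of gain and loss. As deposited, 542 constant regions lost RARβ against 5871 that gained it, so losses were 8.45% of gains and losses together. Of the constant regions with control RARβ, 542 lost it and 8565 kept it. Across all 14608 regions with control RARβ, 21.6% were not called on the RA diet, a share of another base than the 8.45%. With the RA list shortened by score to the length of the control list, the members fell to 3107, the gain share to 37.4% and the losses rose to 40.0% of the changes. This shortening, chosen after seeing the data, removed peaks from the RA list only, so part of that rise follows from its construction. With all 6 lists shortened to 14968 peaks, 301 members were left, the gain share was 72.2% and losses were 24.6% of the changes.

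The score in each list is the peak caller's own measure of peak strength, in this caller's usual output a log transform of the peak's p-value that the files do not spell out. It had a lowest value of 50 in each list, and it was not scaled between libraries. Levels are therefore compared between groups of regions within a list. Where a region's scores on the control and the RA diet are given as a pair, its direction between diets is read from its percentile, the share of peaks in the same list with a lower score. The RARβ score of the members had a median of 102 (quartiles 73.0 and 145, range 50 to 689), against 101 over all 28787 regions with RARβ on the RA diet and 160.1 in the regions called in all 6 lists. Of the 5871 members, 661 (11.3%) had a RARβ score under 60, close to the limit of the list, and 571 (9.73%) reached at least 200.

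Strong RXRα and modest RARα peaks were the pattern of the member regions. Their median RXRα score was 323 on the control diet and 332 on the RA diet. Regions called in all 6 lists had 229 and 254, and constant regions that never carried RARβ had 133 and 125. RARα ran the other way, with medians of 99.6 and 138 in the members against 236 and 253 in the regions called in all 6 lists. The regions without RARβ had RARα medians of 105 and 136, near those of the members. Thus the members stood above the regions with no RARβ peak in RXRα, with similar RARα. The members within 1 kb of a gene start differed, with control medians of 189 for RARα and 153 for RXRα. Regions called in all 6 lists lay within 1 kb more often than members (60.4% against 22.3%). The medians of the compared groups were not divided by distance, so the part of location in these contrasts was not tested.

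**Figure D1:**
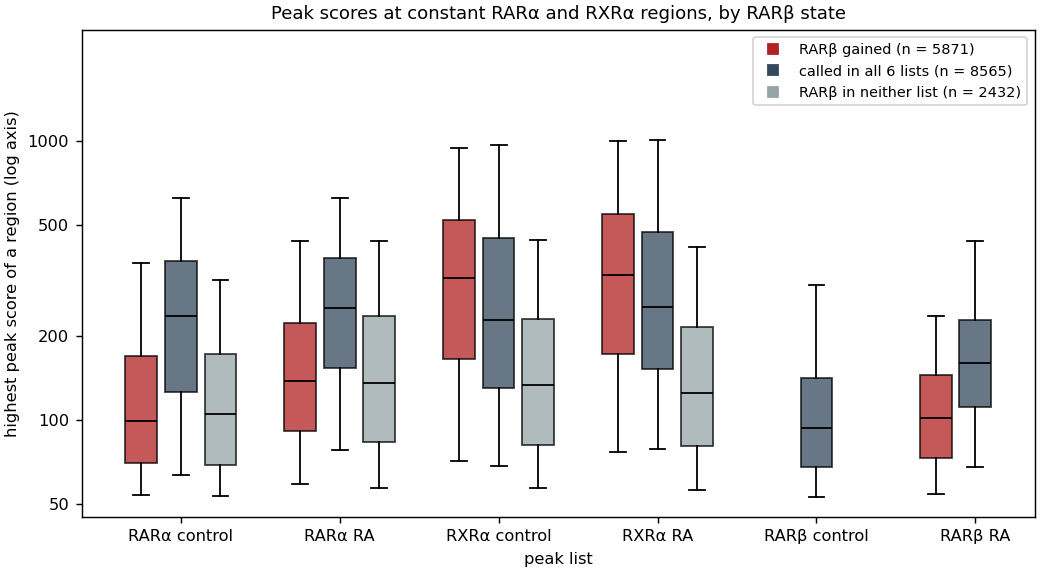
Peak scores (log axis, no unit) in each of the 6 lists for 3 groups of constant RARα and RXRα regions, where boxes span the quartiles, the line is the median and whiskers reach the 5th and 95th percentiles. The members have the highest RXRα medians (323 and 332), and their RARα medians (99.6 and 138) lie near those of regions without RARβ.

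The place of a region within its own list allows the diets to be set side by side. The members' median RXRα percentile was 79.5 on the control diet and 79.6 on the RA diet, and 51.4% (50.1 to 52.6%) of the members had the higher percentile on the RA diet. Their median RARα percentile was 44.1 on the control diet and 55.4 on the RA diet, and it was higher on the RA diet in 66.5% (65.3 to 67.7%) of the members. The RARα shift was not particular to them, since 66.3% (64.4 to 68.2%) of the constant regions without RARβ moved the same way. In regions called in all 6 lists 54.1% did so. The RARα list of the RA diet was longer, with 44296 peaks against 35521, and the part of list length in this shift was not tested.

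Among the 8303 constant regions that could gain RARβ, the share that did so went up with the RXRα score. When these regions were divided into 5 equal groups by control RXRα score, 44.6% (42.2 to 47.0%) gained RARβ in the lowest group, then 57.8%, 71.3% and 85.5%, and 94.3% (93.1 to 95.4%) in the highest. By the RXRα score of the RA diet the lowest and highest groups gained it in 40.1% and 96.4%. No such order was seen with RARα, whose control groups gave 69.5%, 72.2%, 73.8%, 66.9% and 71.0%. At each distance from gene starts the highest control RXRα group also gained RARβ more often than the lowest. These groups were formed anew within each distance, and the groups between them were not computed. Within 1 kb the lowest and highest RXRα groups gave 69.5% and 93.1%, and beyond 10 kb they gave 32.4% and 94.8%. The lowest group spanned scores of 50.2 to 82.3 within 1 kb and of 50.1 to 126 beyond 10 kb. The RARα groups were not divided by distance, so whether an order with RARα exists at a given distance was not tested. Peaks of 1 region share its DNA, so their heights are not independent measures.

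**Figure D2:**
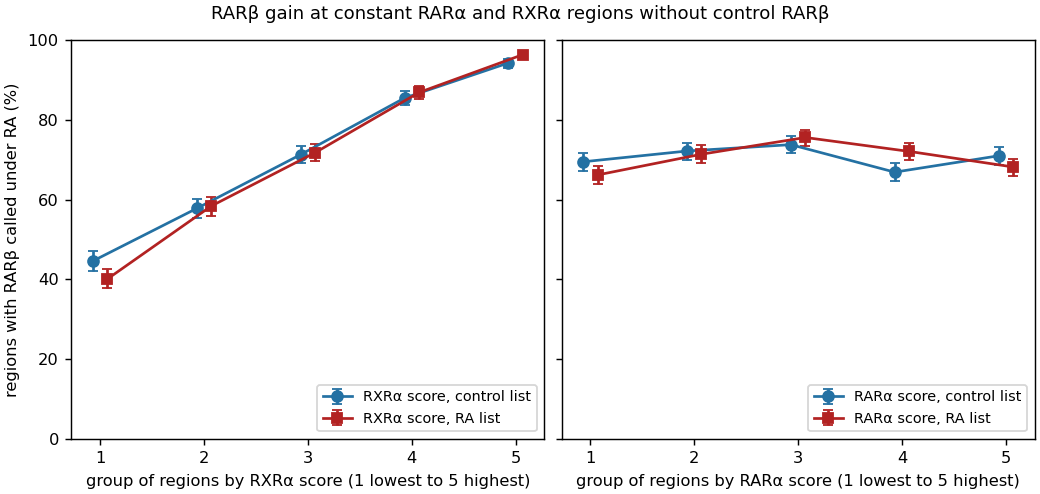
Share of constant RARα and RXRα regions without control RARβ that were called for RARβ on the RA diet (%), in 5 equal groups by the RXRα score (left) or RARα score (right) of either diet, with 95% Wilson intervals. The share goes from 44.6% to 94.3% across the control RXRα groups and stays between 66.9% and 73.8% across the control RARα groups.

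Which receptors occupied a region also went with the gain. RXRα on both diets without any RARα gave RARβ gain in 22.5% (22.0 to 23.1%) of 19135 regions, and RARα on both diets without RXRα gave it in 6.92% (6.38 to 7.50%) of 7861. Regions with RXRα on both diets and RARα on the RA diet only gained RARβ in 56.7% of 5977, and those with RARα on the control diet only in 45.4% of 1926. The share at the constant sites of both receptors, 70.7%, was above all of these. The rule used the same calls, so these shares are a description. They also depend on how a region came to be listed. With neither RARα nor RXRα in any list and no control RARβ, a region exists only through its RA RARβ peak, so all 614 such regions gained it.

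By the rule, the peaks of a member share a merged region, and the distance between them was measured within it. The midpoint of the RARβ peak lay a median of 76.0 bp (95% interval 73.0 to 79.0) from that of the RXRα peak on the RA diet and 74.0 bp (72.0 to 77.0) from that of the RARα peak. It was the closer to RXRα in 2920 members (49.7%), the closer to RARα in 2902 (49.4%) and at equal distance in 49. The same RXRα peak moved by a median of 68.0 bp between diets, and over all regions that held both peaks the RARβ offsets were 74.0 bp from RXRα and 73.0 bp from RARα, near those of the members. The median gap from a member to the nearest control RARβ peak was 23.1 kb, and only 166 members (2.83%) had one within 1 kb.

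Member regions lay farther from gene starts than regions called in all 6 lists, and nearer than regions as a whole. Their median distance to the nearest protein-coding start was 16859 bp, against 302 bp for regions called in all 6 lists and 21074 bp for all regions. Of the members, 22.3% (21.2 to 23.4%) lay within 1 kb of a start, 17.0% between 1 and 10 kb, 34.5% between 10 and 50 kb and 26.2% beyond 50 kb. Within 1 kb the share was 60.4% (59.3 to 61.4%) for regions called in all 6 lists, 14.1% (12.8 to 15.5%) for constant regions without RARβ and 3.15% (2.67 to 3.72%) for the 4314 regions that gained RARβ at constant RXRα without RARα. Over all 87787 regions 13.9% lay within 1 kb, and 34.1% within 10 kb against 39.3% of the members. Inside a protein-coding gene lay 54.6% of the members and 54.3% of all regions. With a score of at least 100 asked of every list, 49.6% of the 3112 regions found lay within 1 kb, still between the 35.7% of regions without RARβ and the 75.4% of those called in all 6 lists. Only 37.3% of those 3112 regions overlapped a member as first defined, since that limit also removes weak control RARβ peaks.

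**Figure D3:**
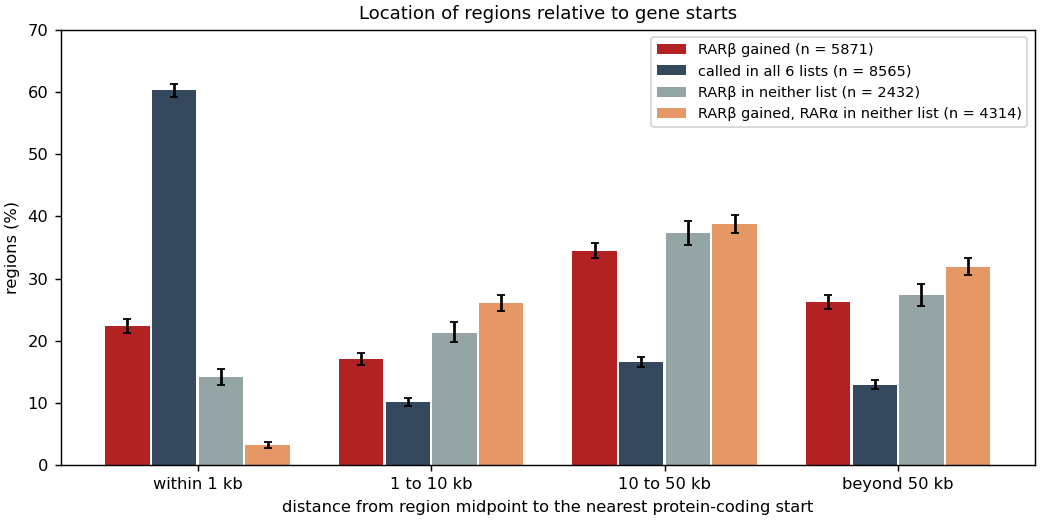
Share of regions (%) by distance from the region midpoint to the nearest protein-coding gene start in 4 groups of regions, with 95% Wilson intervals. The members (22.3% within 1 kb) fall between regions called in all 6 lists (60.4%) and regions that gained RARβ without RARα (3.15%).

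Members near starts and members far from them had different RARα and RXRα peaks but like RARβ peaks. The 1309 members within 1 kb had median control scores of 189 for RARα and 153 for RXRα. The 4562 members beyond 1 kb had 88.2 for RARα and 373 for RXRα. On the RA diet the medians were 214 and 122 for RARα and 166 and 392 for RXRα. The RARβ medians were 103 and 101. Among constant regions without control RARβ, the gain share was 79.2% (77.2 to 81.1%) within 1 kb, 65.8% between 1 and 10 kb and 69.4% beyond 10 kb. Of all constant regions, the members made up 18.6% within 1 kb, 40.3% between 1 and 10 kb and 45.1% beyond 10 kb. Within 1 kb, 73.7% of the constant regions had RARβ on both diets.

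The members were spread over the genome. By chromosome they made up 29.6% (chromosome 17) to 37.2% (chromosome 19) of the constant regions of the autosomes and X, and 3 of 16 on Y. Of 21887 protein-coding genes, 4265 had a member within 10 kb of their span, 229 had at least 3 and 35 at least 5. Arhgap26 (a GTPase-activating protein, span of 775 kb) and Ptprg (a receptor tyrosine phosphatase, span of 689 kb) had 8 members each, and Dlc1 (another GTPase-activating protein, span of 385 kb) had 7. Their RARβ scores ran from 70.8 to 159.9, from 55.3 to 197 and from 71.3 to 210.2. Nfia, Xxylt1 and Zbtb20 also had 7, and Dlc1 is placed before them by its summed RARβ score. Spans ran from the 126 kb of Xxylt1 to the 775 kb of Arhgap26, and the counts were not divided by length.

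The 20 members with the highest RARβ scores were strong RXRα sites. Their median control RXRα score was 1032 (range 285 to 1737), at a median percentile of 98.9 in that list. Control RARα had a median of 124 (range 55.4 to 325) at a percentile of 53.9, and 10 of the 20 lay under that list's median. The RARα percentile was higher on the RA diet at 16 of the 20, and the RXRα percentile at 16. Over all members these shares were 66.5% for RARα and 51.4% for RXRα. Of the 20, 5 lay within 10 kb of a protein-coding start and 7 beyond 50 kb, where 39.3% and 26.2% of all members did.

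The top region lay at chr5:89466664-89467473, 9.17 kb upstream of Gc, which encodes the vitamin D-binding protein of plasma. It scored 689 for RARβ on the RA diet, 55.4 and 134 for RARα on the control and RA diets, and 285 and 613 for RXRα. Its percentile was higher on the RA diet for both, from 7.57 to 54.1 for RARα and from 75.6 to 93.4 for RXRα. The second lay at chr18:46650339-46651280, 53.1 kb from Eif1a, which encodes a translation initiation factor. It scored 677 for RARβ, 74.6 and 289.8 for RARα, and 413 and 988 for RXRα, again with higher percentiles on the RA diet for both receptors.

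The third, at chr8:35405447-35407042 and 30.6 kb from Ppp1r3b, a glycogen-targeting phosphatase subunit of liver, scored 579 for RARβ, 91.2 and 191 for RARα and 766 and 1359 for RXRα. The fourth, at chr8:116290401-116291307, was 214 kb upstream of Dynlrb2, a dynein light chain, and scored 550.4 for RARβ, 106 and 221 for RARα and 819.5 and 1136 for RXRα. At Mapk13, a p38 kinase, the region at chr17:28760522-28761725 lay 8.16 kb upstream and scored 544 for RARβ and 99.6 and 105 for RARα. The RARα percentile there was lower on the RA diet (44.2 and 42.7). The RXRα scores of this region, 1737 and 2007, were the highest of the 20. Dpyd, the first enzyme of pyrimidine breakdown, had the next region 83.8 kb upstream, at 525 for RARβ. Here RARα scored 156 and 137 and its percentile was lower on the RA diet (64.4 and 55.1), while RXRα scored 581 and 698 with a higher percentile (93.2 and 95.3).

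Further regions had Hdac5, Foxo1 or Slc25a13 as the nearest start. That of Hdac5, a histone deacetylase, 11 kb upstream, had a RARβ score of 516 with RARα at 288 and 367 and RXRα at 1369.7 and 1821. A region 333 kb from Foxo1, a transcription factor of gluconeogenesis, had a RARβ score of 506 with RARα at 182 and 418 and RXRα at 1049 and 1311. At Slc25a13, the mitochondrial aspartate-glutamate carrier of the urea cycle, a region 2.61 kb upstream had a RARβ score of 462 with RARα at 158 and 241 and RXRα at 698 and 1261. All 3 had higher percentiles for RARα and RXRα on the RA diet.

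Other nearest starts, with RARβ scores from 427 to 481, were those of Zfp36l1 (an mRNA decay factor), Khdc1a, Cfap100 (a cilia protein), Tenm3 (a teneurin), Shld1 (a DNA repair factor), Col5a3 (a collagen chain), Cnot7 (a deadenylase), Zfp217 and Klf12 (zinc finger proteins) and Pus10 (a pseudouridine synthase). The RARα percentile was lower on the RA diet near Khdc1a (31.2 and 4.85) and Shld1 (71.0 and 52.4). The RXRα percentile was lower near Shld1 (99.6 and 98.5) and Col5a3 (98.8 and 98.0). At the digits given it was the same on both diets near Mapk13 (99.9), Tenm3 (98.9) and Klf12 (98.0). A nearest start names a region's place and does not link it to the gene.

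**Figure D4:**
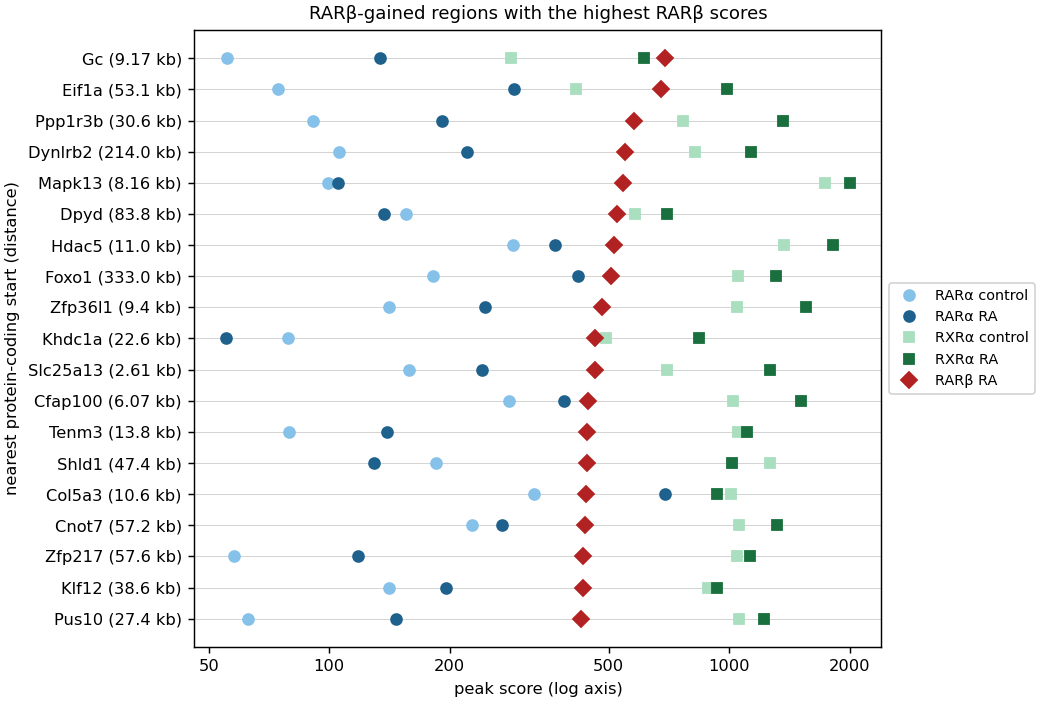
Peak scores (log axis, no unit) of 19 of the 20 members with the highest RARβ scores in the 5 lists that called them, named by the nearest protein-coding start and its distance in kb. RXRα scores (squares) run from 285 to 2007, RARα scores (circles) from 55.1 to 689.9 and the RARβ scores (diamonds) from 427 to 689.

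At the lower end of the rule, the members just inside it had RARβ scores of 50.1 near Cdh2, 50.1 near Cep170b and 50 near Cyp2c50. Just outside it, 3 regions called in all 6 lists had control RARβ scores of 50 and RA scores of 142 near Mettl14, 277 near Ppp1r3a and 189 near Pcsk6.

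A member lay within 10 kb of a start of 2650 of 21536 protein-coding genes, or 12.3%, and within 1 kb of a start of 1394 (6.47%). Of the 20 genes of the retinoid response list (enzymes, binding proteins, receptors and known RA targets), 4 had one, or 20% (8.07 to 41.6%), an interval that includes 12.3%. Nrip1, a ligand-dependent corepressor of nuclear receptors, had a member 4 bp from its start, at chr16:76372359-76373730. There the RARβ score was 166, RARα scored 324 and 363, and RXRα scored 125 and 224. Cyp26a1 had a member over its promoter, at chr19:37697217-37698319, with a RARβ score of 138. RARα there scored 79.5 on the control diet and 490.3 on the RA diet, and RXRα 51.1 and 84.9. The RXRα value of the control diet was near the lowest in its list, and the RARα percentile was 31.8 and 96.3, against 88.7 and 90.5 at Nrip1. Rai14, an RA-induced gene, had a RARβ score of 101 at 0.838 kb, with RARα at 394 and 234 and RXRα at 156 and 137, both at lower percentiles on the RA diet. Pck1, the rate-limiting enzyme of gluconeogenesis, had one of 54.8 at 9.10 kb, near the limit. No gene of this list had a member and a region called in all 6 lists together within 10 kb.

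Target genes of the partner receptors of RXRα were also near members. Of 20 PPARα targets, 8 had one, or 40.0% (21.9 to 61.3%). The member at the Acadl start, whose promoter is printed above, scored 194 for RARβ, 309.9 and 355 for RARα and 540.3 and 812 for RXRα. Cyp4a31 and Cyp4a10, closely related fatty acid omega-hydroxylases whose sequence reads may not all be told apart, had RARβ scores of 141 and 113. At both, the RXRα percentile was lower on the RA diet, with scores of 881 and 665 for Cyp4a31 and of 685 and 333 for Cyp4a10. Angptl4, a secreted inhibitor of lipoprotein lipase, had 2 members, the stronger with a RARβ score of 103 and RXRα at 309.8 and 654.

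Of 20 LXR and FXR targets, 8 also had a member, or 40.0%. At Nr0b2 it scored 186 for RARβ, 177 and 363 for RARα and 752 and 1164 for RXRα. At Abcb11 it scored 176 for RARβ, 109.6 and 139 for RARα and 1640.2 and 1343 for RXRα. The promoters of both are printed above. The RXRα percentile was 96.6 and 99.1 at Nr0b2 and 99.9 and 99.6 at Abcb11. Abcg5 and Abcg8, the divergent gene pair that exports sterols into bile, shared 1 member of 115 for RARβ.

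Of 20 hepatocyte transcription factors, 9 had a member, or 45% (25.8 to 65.8%), and the leading ones were nuclear receptors. Nr1i3 (CAR) had a RARβ score of 284 at 9.82 kb, with RARα at 138 and 160.4 and RXRα at 946 and 1215. Nr5a2 (LRH-1, a regulator of bile acid synthesis) had 132 at 0.327 kb, Nr1h4 (FXR) 97.5 at 0.728 kb and Nr1i2 (PXR) 93.0 at 0.213 kb. At Nr1h4, RARα scored 119 and 301, at percentiles of 52.9 on the control diet and 85.2 on the RA diet.

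Genes for secreted liver proteins were near members as well, 8 of 20 for plasma proteins and 8 of 20 for acute phase and complement genes, or 40.0% each. With a score of at least 100 in every list these shares were 15% (5.24 to 36.0%) and 25% (11.2 to 46.9%), and both intervals include the 11.3% of all genes under that limit. Besides Gc, Hp (haptoglobin) had a RARβ score of 172, Trf (transferrin) 165 and Hpx (hemopexin) 157. The member over the Crp start scored 237 for RARβ, 231 and 405 for RARα and 348 and 533 for RXRα. C4b (complement component 4) had 217 for RARβ with RXRα at 611 and 402, and C3 (complement component 3) had 145 with RXRα at 713 and 937. Itih3, an inter-alpha-trypsin inhibitor heavy chain whose promoter held the DR3 above, had 122 for RARβ.

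Metabolic genes were near members too. Amino acid and urea cycle genes had a member in 9 of 20 (45%), with Gls2 (liver glutaminase) at a RARβ score of 412, Asl (argininosuccinate lyase) at 224, Agxt (alanine-glyoxylate aminotransferase) at 129.7 and Hgd (homogentisate dioxygenase) at 110.2. Glucose metabolism genes had one in 8 of 20 (40.0%), with Slc2a2 (the glucose transporter GLUT2 of hepatocytes) at 195, Pcx (pyruvate carboxylase) at 176, G6pc (glucose-6-phosphatase) at 129 and Irs1 (an adaptor of insulin signalling) at 107. At Irs1 the member lay 0.275 kb from the start with RARα at 566 and 665 and RXRα at 223 and 379.9. Xenobiotic metabolism genes had the highest share, 10 of 20 or 50% (29.9 to 70.1%), with Ugt2b1 (a glucuronosyltransferase) at 166, Sult2a8 (a sulfotransferase) at 161, Ces1d (a carboxylesterase) at 157 and Cyp2a5 (a cytochrome P450) at 142. Families such as these hold near-identical copies, and reads shared between copies make the single gene uncertain. With a score of at least 100 in every list, the amino acid and urea cycle share was 30.0% (14.5 to 51.9%). The glucose and xenobiotic metabolism shares were then 35.0% each (18.1 to 56.7%), beside 11.3% of all genes.

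Over the 9 liver lists, 71 of 179 genes had a member within 10 kb, or 39.7% (32.8 to 47.0%), against 12.3% of all protein-coding genes. Within 50 kb it was 126 of 179, or 70.4% (63.3 to 76.6%), against 32.1% of all genes. Regions called in all 6 lists were near 68 of the 179 (38.0%, 31.2 to 45.3%), where 34.1% of all genes had one. So the liver lists stood above the background for the members, and not clearly for the regions called in all 6 lists. The lists were chosen with earlier results of these data known, so this contrast is a description and not a test. Regions that gained RARβ at constant RXRα without RARα lay within 10 kb of 2 to 8 of the 20 genes of each liver list. For the retinoid response list it was 7, against 4 for the members. The share of all genes near such regions is not given here, so nearness to liver genes is not shown to be particular to the members. Members lay near 0 of 10 marker genes each for stellate, Kupffer and endothelial cells, and 1 of 10 for cholangiocytes (Sox9, RARβ score 61.0). Together this was 1 of 40, or 2.50% (0.443 to 12.9%), an interval that includes the background.

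With the lists as deposited, housekeeping genes were near members at about the share of all genes, 12.3%. They were more often near regions called in all 6 lists. Of 97 genes whose symbols begin as those of ribosomal proteins do, 15 had a member, or 15.5% (9.60 to 24.0%), while 63 had a region called in all 6 lists (64.9%). These 97 include 10 Rps6k kinases, 1 of which had a member. Of 49 Nduf genes, which encode complex I subunits and assembly factors, 7 had a member (14.3%, 7.10 to 26.7%) and 40 a region called in all 6 lists (81.6%). With a score of at least 100 in every list, the Nduf share near members was 26.5% (16.2 to 40.3%). That interval lies above the 11.3% of all genes under that limit. The ribosomal share was then 12.4% (7.22 to 20.4%), an interval that includes it. Among the liver lists, LXR and FXR targets and glucose metabolism genes each had 11 of 20 near a region called in all 6 lists (55%, 34.2 to 74.2%), against 8 of 20 near a member. At the printed promoters, the Ndufv2 member scored 207 for RARβ, 430.1 and 522 for RARα and 191 and 163 for RXRα. The Rpl37a member scored 173 for RARβ, 361 and 382 for RARα and 104 and 85.6 for RXRα. Both had lower RXRα scores than the members' medians of 323 and 332, and higher RARα scores than the medians of 99.6 and 138.

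**Figure D5:**
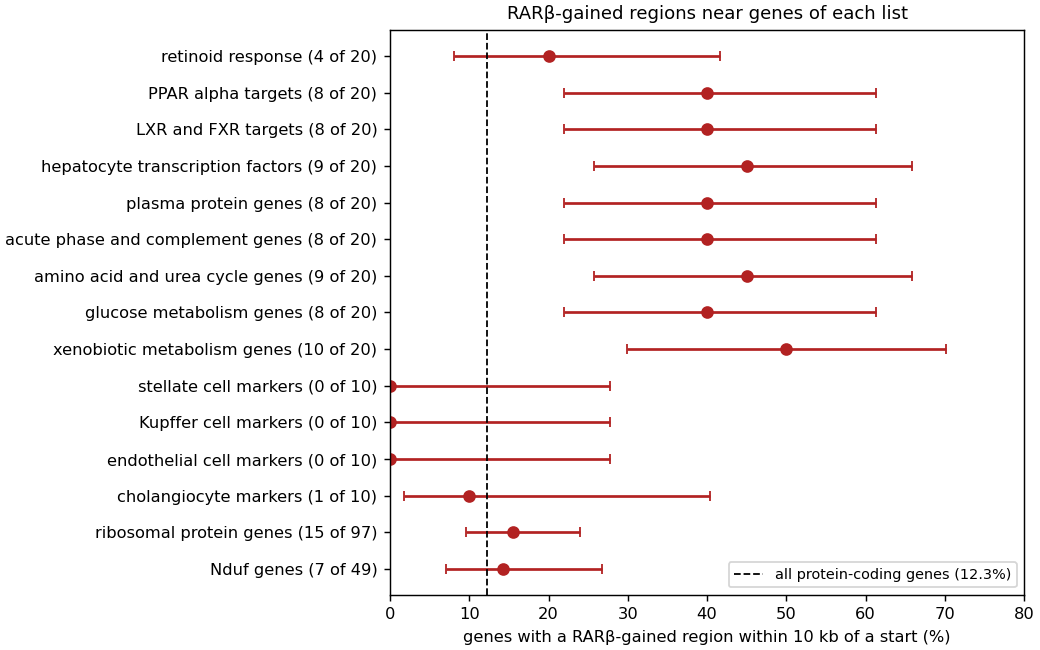
Share of the genes in each list (%) with a member within 10 kb of a start, with 95% Wilson intervals. The dashed line is the 12.3% of all protein-coding genes, and 8 of the 9 liver lists lie at 40 to 50%, with the retinoid response list at 20%. The lists were chosen with earlier results of these data known.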

How the data were processed

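RARα, RARβ and RXRα ChIP-seq peak lists from livers on both diets, 1 library each, were used as deposited. An input library was not analysed here. The submitters' processing notes name CASAVA 1.4, Bowtie and mm10, and the peak names in the files are those of MACS. The version, settings and use of input are not given in the sources used here. The deposited score in each file is the caller's value for a peak, with no normalisation between libraries, and read depth is unknown.

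Overlapping or touching peaks were merged (checked with bedtools 2.31.1), and a region took its highest score per list. Distances run from region midpoints to 32216 protein-coding starts of 21536 genes, from RefSeq GRCm38.p6, with strand from RefSeq for 17492 genes and otherwise from an older annotation. A gene counted where a midpoint lay within 10 kb. Promoter sequences are from RefSeq. All 366 listed genes matched. Intervals are 95% Wilson intervals (95% rank intervals for medians). Counting was tested on simulated peaks (Python 3.11.15).

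The members and gene lists were chosen with earlier results of these data known. Named were the 20 members with the highest RARβ scores, up to 4 genes per list by RARβ score, 3 regions on either side of the limit and the 3 genes with the most members, ties by summed score. The nearest start of 1 of the 20 members is not reported here.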

Additional observations from a re-analysis of the deposited data

How the results depend on the processing

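No paired analysis was possible because each receptor and diet had 1 library and the labels give no replicate numbers. Of 64 alternative values for the 9 main results, 30 moved, past the counting interval of a share, offset or score or, for counts, by over 1.5 times. With a score of at least 100 in every list there were 3112 members, a gain share of 63.6%, losses at 5.70% of changes, 49.6% of members within 1 kb and 61.4% within 10 kb of a start, an offset of 87.0 bp, a median RARβ score of 159.8 and 30.2% of the liver list genes near a member (11.3% of all genes). With all lists cut to 14968 peaks there were 301 members, with 72.2%, 24.6%, 29.9%, 46.2%, 82.0 bp and 171 for the same measures up to the score, and 174 genes within 10 kb. Chosen after seeing the data, a RARβ limit of 100 on the RA diet gave 3021 members, a gain share of 36.4%, losses at 41.6%, a score of 143 and 1412 genes, and RARβ lists of equal length gave 3107, 37.4%, 40.0%, 142 and 1451. Starts of genes of all kinds gave 25.7% within 1 kb and 50.1% within 10 kb. A distance of 1 kb gave 1394 genes, and 50 kb gave 70.4% of liver list genes against 32.1% of all genes. Apart from what each limit removes by construction, the cause was not tested. In every one of these settings that changed the regions, the members lay between regions without RARβ and regions called in all 6 lists in the share within 1 kb, and had the highest median RXRα scores of these 3 groups. Without read totals, the depth behind an absent control RARβ peak is unknown.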
